A study of Drosophila melanogaster with 2 samples.

Results

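The genes described here encode 10 insulator and architectural proteins of Drosophila melanogaster: Clamp, Chro, Trl, CTCF, su(Hw), BEAF-32, Cp190, mod(mdg4), pita and Dref. They were chosen by symbol, all 10 were found in the annotation, and they stand among 13968 protein-coding genes on the 7 chromosomes used. The question was where, at each of these genes, chromatin immunoprecipitation with sequencing (ChIP-seq) placed a fusion of CG1024 to enhanced green fluorescent protein (eGFP). The flies were transgenic for the CG1024-eGFP fusion, and the material was whole embryos 0 to 24 hours old, so that all cell types and embryonic stages are mixed in each sample. Chromatin was precipitated with an anti-GFP antibody. All samples belong to 1 group, with 2 biological replicates, and nothing else was compared with it. A peak therefore says where the tagged protein was recovered, not whether the gene beside it was expressed or changed. The values are the authors' peak lists on genome build dm6, without read counts, and sequencing depth is not known.

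Insulators are DNA elements that limit contact between an enhancer and a promoter or mark the edge of a chromatin domain. In Drosophila they are bound by sequence-specific proteins, among them CTCF, su(Hw), BEAF-32, pita, Clamp and the GAGA factor encoded by Trl, which in turn recruit cofactors such as Cp190 and the products of mod(mdg4). Chro, a chromodomain-containing protein, is found with BEAF-32 and Dref at the promoters of broadly expressed genes and at domain borders. The peaks below lie at the genes for these proteins and are those of the CG1024 fusion, not of the insulator proteins themselves.

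The sequences that follow lie at 7 places on which the results below turn: the summits of the strongest peaks at Clamp and Trl, the gaps between divergent starts at Chro and Dref, the stretches just upstream of the Cp190 start and of the Trl start at 14757336, and the CTCF-side peak in Sec63. They were read from the RefSeq Release 6 assembly, the same build as dm6, and are written 5' to 3' on the minus strand, the coding strand of Clamp, Chro, Dref, Cp190, Trl and CTCF. Capitals mark matches, on either strand, to any of 7 motifs named further on, so that TATCG stands for CGATA on the other strand. Transcribed untranslated sequence was left out, which is why some stretches stop at a transcription start site.
Clamp summit, chr2L:22169159-22169359, minus strand: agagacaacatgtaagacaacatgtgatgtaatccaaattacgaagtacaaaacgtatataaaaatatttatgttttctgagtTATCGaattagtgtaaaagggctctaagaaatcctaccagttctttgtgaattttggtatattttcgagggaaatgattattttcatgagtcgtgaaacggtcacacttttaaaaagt
Chro to Ssl1 gap, chr3L:22878985-22879088, minus strand: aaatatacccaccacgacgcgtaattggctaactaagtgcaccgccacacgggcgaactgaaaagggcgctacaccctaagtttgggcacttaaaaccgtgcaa
Dref to RpL13 gap, chr2L:9967230-9967312, minus strand: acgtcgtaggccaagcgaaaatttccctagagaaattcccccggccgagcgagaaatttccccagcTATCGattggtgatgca
Cp190 upstream stretch, chr3R:15275242-15275414, minus strand: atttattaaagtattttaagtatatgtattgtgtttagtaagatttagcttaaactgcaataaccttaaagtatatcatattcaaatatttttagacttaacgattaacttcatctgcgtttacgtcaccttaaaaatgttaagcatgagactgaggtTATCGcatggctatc
Trl intronic summit, chr3L:14759412-14759612, minus strand: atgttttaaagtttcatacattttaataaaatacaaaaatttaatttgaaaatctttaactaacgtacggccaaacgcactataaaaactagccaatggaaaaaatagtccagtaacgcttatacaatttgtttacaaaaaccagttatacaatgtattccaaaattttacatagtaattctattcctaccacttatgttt
Trl upstream stretch, chr3L:14757337-14757427, minus strand: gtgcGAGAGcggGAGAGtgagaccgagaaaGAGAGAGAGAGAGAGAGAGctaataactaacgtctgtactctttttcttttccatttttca
Sec63 intronic summit, chr3L:7361315-7361515, minus strand: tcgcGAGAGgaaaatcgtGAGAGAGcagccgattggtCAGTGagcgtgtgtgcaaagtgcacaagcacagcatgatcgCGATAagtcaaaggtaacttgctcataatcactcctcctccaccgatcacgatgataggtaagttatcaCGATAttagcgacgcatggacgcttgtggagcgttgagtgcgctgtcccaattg

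In the conservative set of peaks made from both replicates, 8 of the 10 genes had at least 1 peak between 5 kb upstream and the gene end, the interval used throughout. The exceptions were su(Hw) and pita. Over all protein-coding genes 29.2% had such a peak. At Clamp, Chro, Trl, BEAF-32, Cp190 and Dref, 6 genes in all, a summit lay within 500 bp of one of the gene's own transcription start sites (TSSs), against 14.1% of all protein-coding genes. The conservative set is the stricter of a pair of series-level lists, and a summit is the position of highest signal in a peak. Interval length differs between genes, with a median of 9.47 kb for these 10 and 7.16 kb over all genes. Of the 8 genes with an interval of at most 11 kb, 6 had a conservative peak, beside 31.3% of the 4026 protein-coding genes with an interval from 7162 bp to 11 kb.

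The count changed little between lists. In the other series-level set, again 8 genes had a peak (32.5% of all genes) and 7 had a summit at their own promoter (16.2%), CTCF being the addition. Replicate 1 alone also gave 8 genes with a peak (23.7%) and the same 7 with a promoter summit (11.4%). Replicate 2 alone gave 7 genes with a peak (21.5%) and 6 with a promoter summit (10.5%), and CTCF had none of either there. The 10 intervals together cover 121 kb and held 12 conservative peaks, or 0.0988 per kb, beside 0.0348 per kb over the intervals of all protein-coding genes. Replicate 1 had 12 thresholded peaks in them and replicate 2 had 9. These are descriptions of a list of genes chosen with earlier results of these data known, and no test was made of the list.

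Both replicates' thresholded lists held 8 of the 12 conservative peaks, replicate 1 alone held 1, replicate 2 alone held 1, and 2 were in neither. For the whole conservative set the shares were 48.6% in both and 24.0% in neither. The median signal of the 12 was 121, and the median of all 3401 conservative peaks was 90.9. Signal is the authors' value for each peak, on a scale they do not state, and at these 12 peaks it was larger in the series-level list than in either replicate's list, so levels are compared only within a list. A thresholded list keeps peaks with an irreproducible discovery rate (IDR) of 0.01 or below, a measure of how well a peak's rank repeats between data sets. It is given below as −log10 of the global IDR, where the threshold is 2 and the highest value listed is 5. These values come from the ranked lists, which also hold rows that miss the threshold. For the conservative set they come from the ranked list behind it. Not every row at an IDR of 0.01 or below is kept, since that ranked list holds 3502 such rows and the conservative set 3401 peaks. The other thresholded lists are likewise shorter than the count of such rows. What removes the remaining rows is not given in the sources used here.

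**Figure D1:**
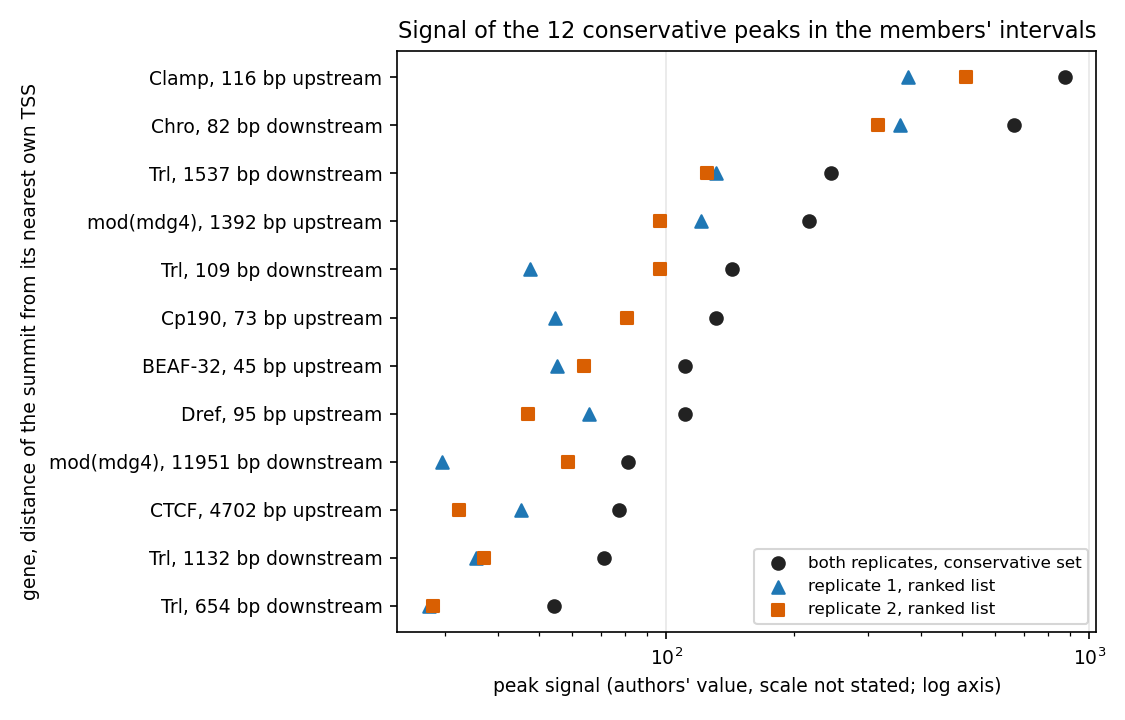
Signal of the 12 conservative peaks at the 8 genes that had one, on a log axis, in the conservative set (circles) and at the same peaks in the ranked list of replicate 1 (triangles) and of replicate 2 (squares). Clamp at 874 and Chro at 663 stand to the right of the other 10 peaks, which lie at 245 or below in the conservative set, and the weakest Trl peak lies at 54.2.

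Clamp, which encodes a zinc-finger protein that binds GA-rich sequence and is needed for dosage compensation, had the strongest peak of the 12. It runs from 22169121 to 22169405 on 2L and peaks at 22169259, which is 116 bp upstream of the single annotated Clamp TSS. Its signal was 874 in the conservative set, 372 in replicate 1 and 512 in replicate 2. It ranked 48 of 3401 in the conservative set, 68 of 82795 in the replicate 1 ranked list and 39 of 108744 in the replicate 2 ranked list. The −log10 IDR was 5 in the ranked list behind the conservative set and in each replicate's ranked list, and the replicates' summits lay 14 bp apart. The start of a long non-coding RNA gene, lncRNA:CR44809, also lies within 500 bp of this summit. Replicate 1 alone had a further thresholded peak in a Clamp intron, 420 bp downstream of the TSS, with a signal of 39.2, and replicate 2 had no ranked peak there.

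Trl, which encodes the GAGA factor, had 4 conservative peaks, the most of the 10 genes, and its interval of 18.1 kb on 3L was exceeded in length by that of mod(mdg4). The strongest lay in an intron, with its summit at 14759512, 1537 bp downstream of the TSS at 14761049. Its signal was 245 in the conservative set, 131 in replicate 1 and 125 in replicate 2. The −log10 IDR was 5 in all of these lists. A second Trl peak had its summit at 14757227, 109 bp downstream of an internal TSS at 14757336, in the 5' UTR of Trl and of the overlapping gene CG42507. Its signal was 143 in the conservative set, 47.7 in replicate 1 and 96.9 in replicate 2, with −log10 IDR of 2.94 and 5 in the replicates. Both passed, with replicate 2 the higher. The other two Trl peaks were intronic and weak. At 14756204 the signal was 71.1, with 35.5 in replicate 1 and 37.2 in replicate 2, and at 14760395 it was 54.2, with 27.5 and 28.1. The replicates gave like signals at both, yet neither peak was in either replicate's thresholded list, the highest −log10 IDR there being 1.71 and 1.45. Replicate 1 alone also had a thresholded peak of signal 45.6 at 14762398, 1349 bp upstream of the first Trl TSS and inside an intron of Mgat4a. That summit was 370 bp downstream of the Mgat4a TSS.

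The stretch just upstream of the internal Trl start, printed above, holds 10 matches to GAGAG, most of them overlapping in a single run of GA repeats. GAGAG is the core of the sequence that the GAGA factor binds. The stretch starts beyond the 100 bp searched on either side of the summit at 14757227, so it does not enter the motif counts below. The intronic summit of the strongest Trl peak held none of the 7 motifs, and its window of 201 bases was 25.4% G and C.

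Chro encodes the chromodomain-containing protein Chromator, which binds interbands of polytene chromosomes. Its peak spans 22878792 to 22879006 on 3L, with the summit at 22878902 in the Chro 5' UTR, 82 bp downstream of the TSS. The signal was 663 in the conservative set, 356 in replicate 1 and 316 in replicate 2. It was the second strongest of the 12 peaks, at rank 86 of 3401. In the ranked lists it stood at 70 of 82795 in replicate 1 and 97 of 108744 in replicate 2. Its −log10 IDR was 5 in both of these and in the ranked list behind the conservative set. Chro is transcribed divergently from Ssl1, which encodes a subunit of the general transcription factor TFIIH, across a gap of 104 bp. The summit lay 187 bp from the Ssl1 TSS, so the peak cannot be given to 1 of these genes by position.

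BEAF-32 encodes the boundary element-associated factor, which binds clusters of CGATA. Its peak on 2R spans 14770284 to 14770563 with the summit 45 bp upstream of the TSS at 14770469. The signal was 111 in the conservative set, 55.1 in replicate 1 and 63.8 in replicate 2, with −log10 IDR of 3.77, 3.30 and 4.08. The peak was thus moderate in both replicates and above the threshold in each. The summit also lies inside an antisense RNA gene, asRNA:CR42254, which has an annotated transcript start within 500 bp of it.

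Dref encodes the factor that binds the DNA replication-related element TATCGATA. It is divergent from RpL13, a ribosomal protein gene, with 83 bp between their annotated 5' ends on 2L. The peak spans 9967184 to 9967463, and its signal was 111 in the conservative set, 65.6 in replicate 1 and 47.1 in replicate 2. All 3 values passed the IDR threshold, at 3.63, 3.86 and 3.25. The series-level summit at 9967324 lay 95 bp upstream of the Dref TSS and 6 bp upstream of an RpL13 TSS at 9967330. That summit is in the RpL13 5' UTR, since the annotated RpL13 gene starts at 9967313. In replicate 1 the summit was at 9967272, and in replicate 2 at 9967283, which is 43 and 54 bp upstream of the Dref TSS and inside the gap between the genes. Only the summit of the combined list thus lay inside RpL13, and the peak cannot be given to 1 of these genes by position.

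**Figure D2:**
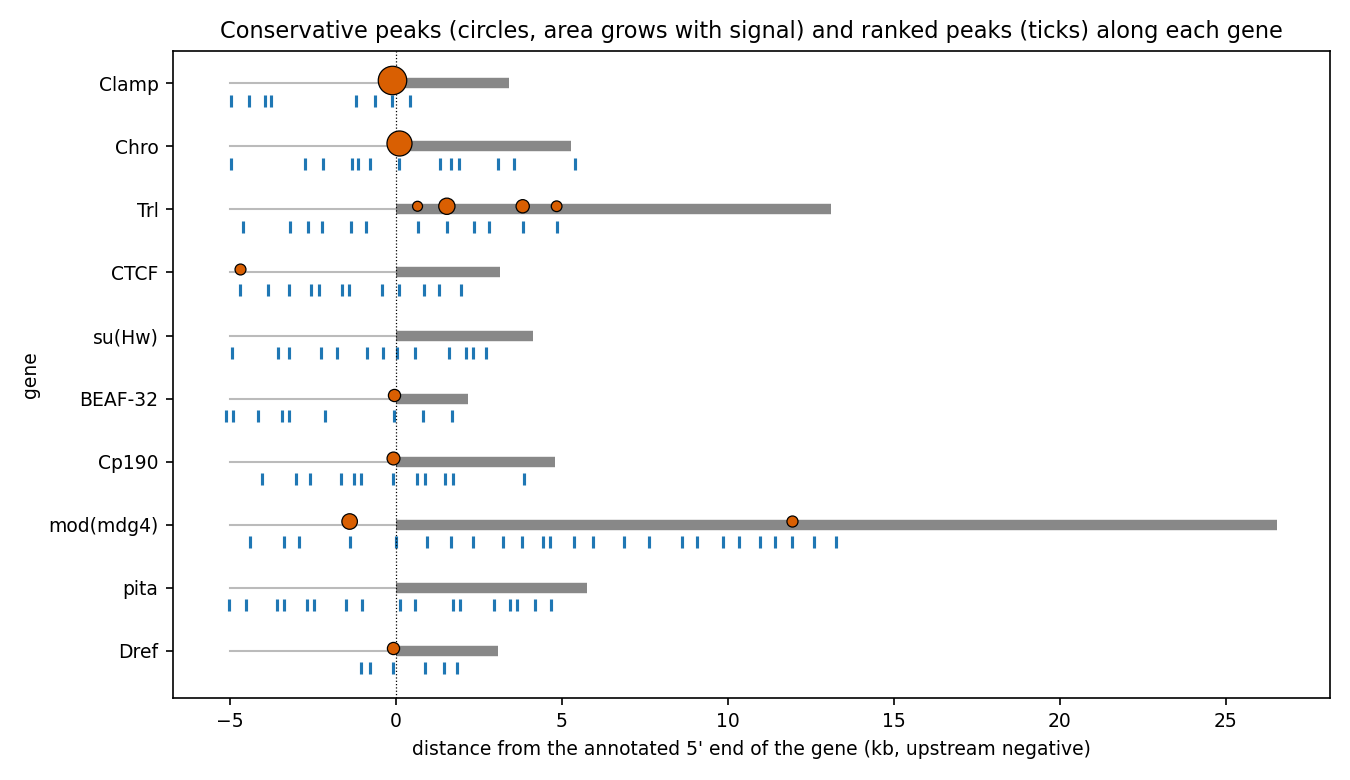
Position of conservative peaks (circles, area growing with signal) and of all peaks of the ranked list behind the conservative set (ticks) along each of the 10 genes, in kb from the annotated 5' end with upstream negative. Thick bars are the gene and thin lines the 5 kb upstream. Clamp, Chro, BEAF-32, Cp190 and Dref have their circle at the 5' end, Trl has 4 circles inside the gene, and su(Hw) and pita have ticks but no circle.

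CTCF encodes the fly homologue of the vertebrate zinc-finger insulator protein. Its conservative peak, at 7361275 to 7361554 on 3L, lay 4702 bp upstream of the CTCF TSS and inside an intron of Sec63, 854 bp downstream of the Sec63 TSS, a gene for a protein-translocation factor of the endoplasmic reticulum. The signal was 77.4 in the conservative set, 45.4 in replicate 1 and 32.3 in replicate 2. It passed the threshold in replicate 1 (−log10 IDR 2.24) and not in replicate 2 (1.05). At the CTCF promoter itself, a peak with its summit at 7356615, 98 bp downstream of the TSS, was in the other series-level set with a signal of 54.8. It was also in the replicate 1 list, with 34.7. Replicate 2 had a ranked row of 26.8 overlapping it, below the threshold at 0.689. The series-level peak at 7356615 had a −log10 IDR of 2.22 in the ranking behind the other set and 0.108 in the ranking behind the conservative set, at the same signal of 54.8.

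The zinc-finger genes su(Hw), whose product binds the gypsy insulator, and pita had no peak in any of the 4 thresholded lists. The strongest ranked peak in the su(Hw) interval on 3R had a signal of 32.4, rank 16120 of 133694 and a −log10 IDR of 0.193, and it lay 4935 bp upstream of the TSS. Within 500 bp of the su(Hw) TSS the strongest was 14.9. In replicate 1 the highest value anywhere in the interval was 22.9, and in replicate 2 it was 21.0. At pita on 2R the strongest ranked peak was at the promoter, with its summit at 23554582, 130 bp downstream of a TSS. Its signal was 50.2 and its −log10 IDR 1.08, an IDR of 0.0835, which misses the threshold. In replicate 1 the strongest pita peak, 107 bp downstream of the TSS, had a signal of 38.3 and a −log10 IDR of 1.09. In replicate 2 the strongest, with 25.0 and 1.22, was elsewhere, 467 bp from another pita TSS. Both genes are therefore without a called peak, and pita came nearer to one than su(Hw). Absence from a thresholded list is not absence of binding, since the depth is unknown.

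Cp190 encodes a centrosomal and chromatin protein that is recruited by most fly insulator proteins. Its peak spans 15275174 to 15275453 on 3R, and its summit is 73 bp upstream of the TSS at 15275241. The signal was 131 in the conservative set, 54.6 in replicate 1 and 80.9 in replicate 2, with −log10 IDR of 3.96, 3.66 and 4.29. The replicates' summits fell on the same base, 97 bp upstream of the TSS. The neighbouring gene CG4338 starts divergently across 280 bp, and the series-level summit lay 208 bp upstream of its TSS.

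The BTB-domain protein gene mod(mdg4), whose many isoforms are made by trans-splicing, had 2 conservative peaks in an interval of 31.6 kb on 3R and neither was at its own TSS. The stronger, with its summit at 21378793, was 1392 bp upstream of that TSS and 184 bp upstream of the TSS of tin, which encodes the homeodomain protein tinman of the heart and mesoderm. Its signal was 218 in the conservative set, 121 in replicate 1 and 96.7 in replicate 2, with −log10 IDR of 5 in each. The weaker lay at 21365450, 11951 bp into the gene, in an intron. It was 38 bp downstream of the start of pre-mod(mdg4)-E, one of the separately annotated units that supply 3' exons for trans-splicing. Starts of the pre-mod(mdg4) units AB, AD, AE, C, U, V, W, X and Y also lie within 500 bp of this summit. The peak is thus not particular to the start of 1 unit. The signal of this weaker peak was 81.1 in the conservative set, 29.5 in replicate 1 and 58.6 in replicate 2. It passed the threshold in replicate 2 (3.28) and not in replicate 1 (0.777). At the mod(mdg4) TSS the ranked list held a peak of 36.8 with a −log10 IDR of 0.599.

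**Figure D3:**
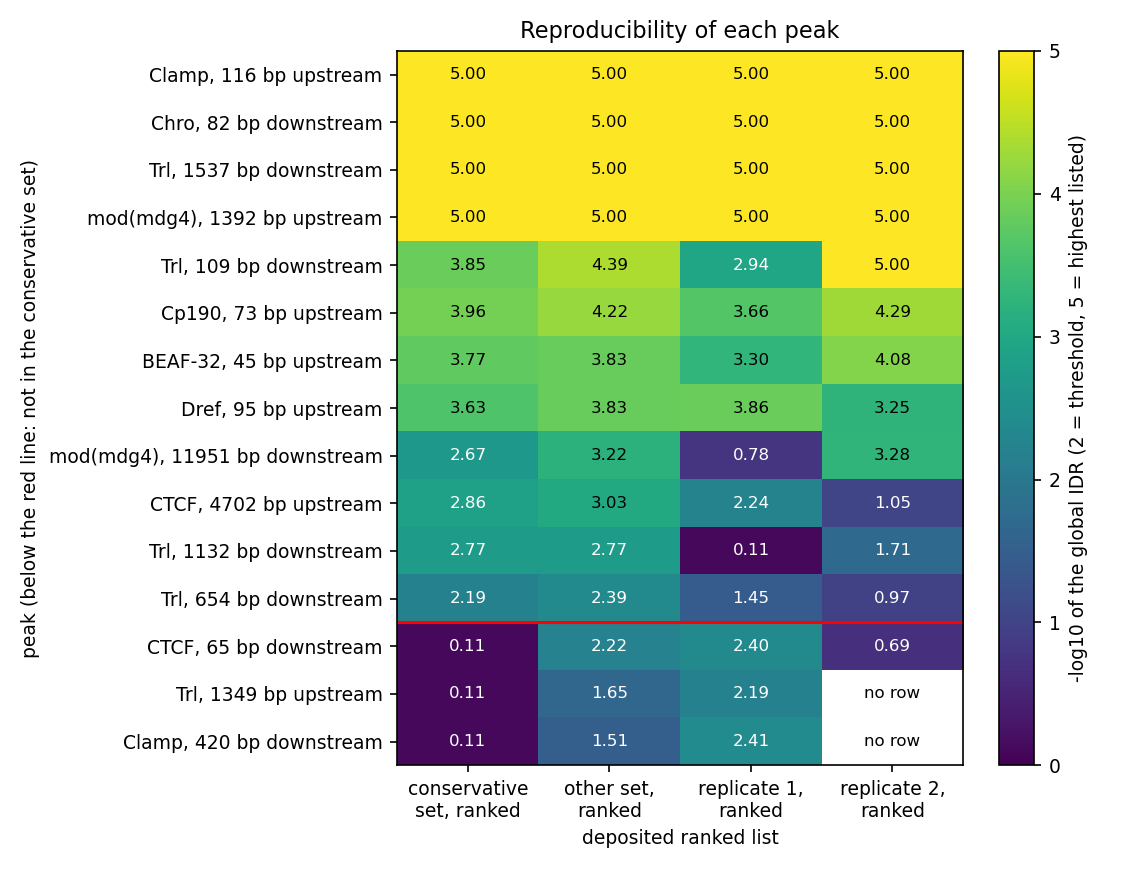
−log10 of the global IDR in the 4 deposited ranked lists (columns) for the 12 conservative peaks and, below the red line, for 3 peaks that were thresholded in another list (rows, named by gene and distance from its nearest TSS). Peaks at Clamp, Chro, Trl (1537 bp) and mod(mdg4) (1392 bp) reach 5 in all columns, and the rows from mod(mdg4) (11951 bp) downward fall under 2 in at least 1 column.

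Apart from Clamp and Chro, the promoter peaks at these genes were close in signal. In the conservative set the promoter peaks at BEAF-32, Dref, Cp190 and Trl ran from 111 to 143, all above the list median of 90.9, while those at Clamp and Chro were 874 and 663. All 6 promoter peaks were in both replicates' thresholded lists, beside 48.6% of all conservative peaks, promoter or not. No such share is given for promoter summits alone. The remaining 6 peaks, away from the genes' own starts, ranged from 54.2 to 245, and 2 of them were in both. Of the 6 promoter peaks, 4 had their summit upstream of the TSS and 2 downstream, a split given without its share over all promoter summits. A TSS of another protein-coding gene lay within 500 bp at 3 of the 6. Among all 1547 conservative summits at protein-coding promoters, 34.0% lay within 500 bp of the starts of 2 or more such genes. Between the replicates the summits of the 12 peaks were 0 to 38 bp apart.

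Signals were also set beside those of the other conservative peaks within 500 kb. Around Clamp, whose gene is 1.34 Mb from the centromere end of the arm, 25 other peaks had a median of 187, and 1 was stronger than the Clamp peak. Around Chro, at 5.23 Mb, the median of 22 peaks was 107, and 4 were stronger. Clamp thus lay among peaks of high signal, at 4.67 times their median, and Chro at 6.18 times. The strongest peaks of Trl and mod(mdg4) were 3.0 and 2.77 times the median around them. For the promoter peaks of Cp190 and BEAF-32 the ratio was 1.76 and 1.34. At Dref, 32 of 59 nearby peaks were stronger and the ratio was 0.962. In all, 9 of the 12 peaks were above their local median, of which CTCF at 1.09 and the weaker mod(mdg4) peak at 1.06 were only just above. The Trl peaks share a neighbourhood, as do the mod(mdg4) peaks, so the 12 are not separate cases. No share over all conservative peaks is given for this count. Whether place on the chromosome arm bears on these signals was not tested.

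**Figure D4:**
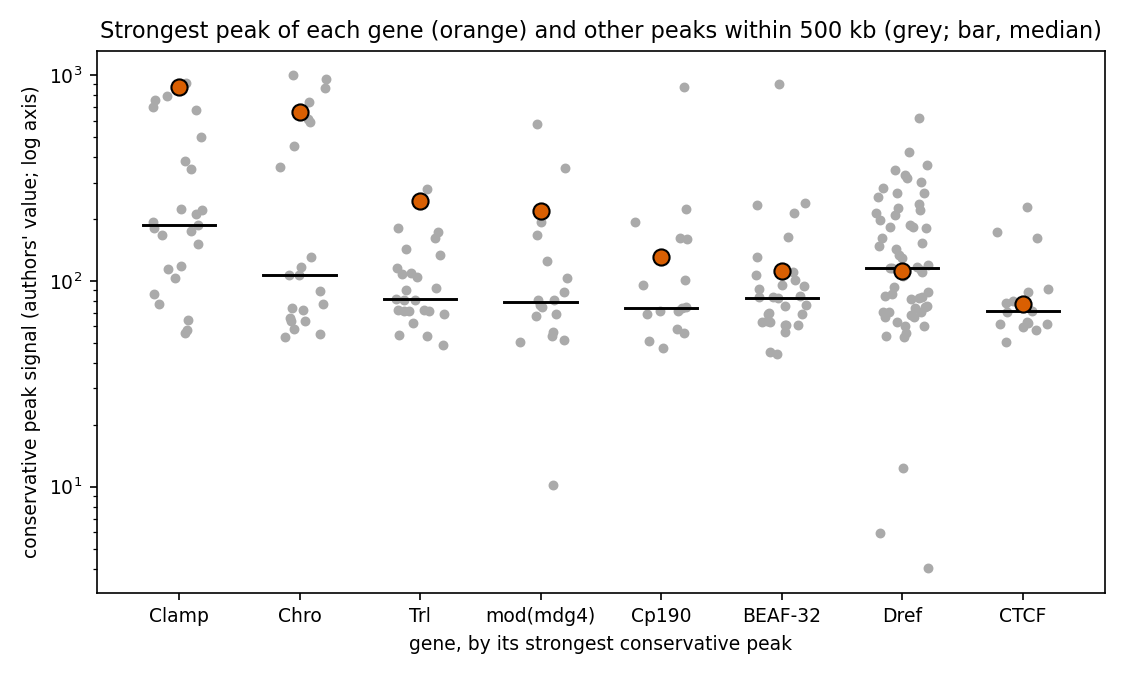
Signal of the strongest conservative peak of each of 8 genes (orange) and of the other conservative peaks within 500 kb of it (grey), on a log axis, with bars at the median of the grey points. Clamp has the highest median around it at 187, and Dref lies just under its own at 115.

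In the ranked lists, which hold weak rows as well, all 10 genes had peaks. The ranked list behind the conservative set held 127 rows in their intervals, 6 to 25 per gene, with a median signal of 24.4. Of these, 12 were at an IDR of 0.01 or below, beside 3502 of all 133694 rows of that list. The 127 rows are 1.05 per kb, beside 1.09 over the intervals of all genes. Replicate 1 had 129 rows, 4 to 29 per gene, and replicate 2 had 100 rows, 5 to 17 per gene. Per kb these were 1.06 and 0.823, beside 0.737 and 0.852 over all genes, so the replicate 1 value was above that over all genes and the replicate 2 value slightly below it. Of these, 12 rows in replicate 1 and 9 in replicate 2 were at an IDR of 0.01 or below. Over the whole lists such rows were 2686 of 82795 in replicate 1 and 2405 of 108744 in replicate 2. In the list behind the conservative set Clamp, with the strongest peak, had 8 rows, and pita, with no called peak, had 17.

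Motifs linked to these proteins were searched on both strands within 100 bp of each of the 12 summits. CGATA, which is bound by BEAF-32 and is contained in TATCGATA, was in 5 windows, those of Clamp, Chro, CTCF, Cp190 and Dref. Over all conservative summits 30.5% of windows held it, and over all protein-coding TSSs 37.1%. It lay 8 bp from the Chro summit and 15 bp from the Clamp summit. The whole DRE, TATCGATA, was in 1 window, that of Cp190, at 73 bp from the summit and across the TSS, so the stretch printed above holds it in part. It was in 4.27% of conservative summit windows and 6.44% of TSS windows. The Dref window, at the gene for the DRE-binding factor, held CGATA and not the whole DRE.

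GAGAG, bound by the GAGA factor and by Clamp, was in 1 window of the 12, that of the Sec63 intronic peak, where 23.7% of all conservative windows held it and 25.0% of TSS windows. The Clamp summit had none. CACTG was in 4 windows, those of BEAF-32, CTCF and Trl with 2, beside 51.8% of all conservative windows and 36.9% of TSS windows. The CTCF core AGGNGGC, in 5.68% of conservative windows, CAGCTG, in 9.10%, and the M1BP motif, in 1.30%, were in none of the 12. A match is a run of letters and no evidence of binding, and a window without a match says nothing about the factor.

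A wider list of 28 insulator cofactor, cohesin and condensin genes and other architectural genes was set beside these 10, of which 26 matched the annotation by symbol. Of the 26, 6 had a conservative summit within 500 bp of a TSS, beside 14.1% of all protein-coding genes. The strongest was at vtd, which encodes the Rad21 subunit of cohesin, whose summit at 27136461 on 3L was 64 bp before the TSS. Its signal was 1056 in the conservative set, 459 in replicate 1 and 599 in replicate 2. Nipped-B, which encodes the cohesin loader, had a summit at 4729049 on 2R, 32 bp upstream of its TSS, with signals of 699, 339 and 354. The vtd peak was stronger than the Clamp peak in the conservative set (1056 against 874) and in replicate 1 (459 against 372) and replicate 2 (599 against 512). The Nipped-B peak was above the Chro peak in the conservative set (699 against 663) and in replicate 2 (354 against 316), and below it in replicate 1 (339 against 356). The vtd gene is 0.952 Mb from the centromere end of its arm, and 3 of 13 other conservative peaks within 500 kb were stronger, with a local median of 99.2. Nipped-B is at 4.69 Mb, where 9 of 36 were stronger and the median was 204. The condensin gene SMC2 had a summit of signal 110 beside the divergent gene Ercc1, with 53.2 and 57.7 in the replicates. These 3 were in both replicates' thresholded lists. The summits at Cap-H2 (signal 74.2), a condensin II gene that shares its promoter region with MED7, at fs(1)h (63.2), a bromodomain protein gene beside mys, and at wapl (58.8), a cohesin-release factor gene, were in neither. The 20 other genes of the wider list had no conservative promoter summit. They include the cohesin genes SMC1 and SMC3 and the condensin genes Cap-D3, glu and barr. These cohesin and condensin genes had no conservative peak in their intervals and no promoter summit in any thresholded list. SA, also a cohesin gene, and Mzfp1 were the symbols without a match. Among the 20, Nup98-96 had a promoter summit in both replicates' thresholded lists and 1 conservative peak in its interval. The M1BP and e(y)2 genes each had a promoter summit in the other series-level set, and e(y)2 also had 1 in replicate 1.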

How the data were processed

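ChIP-seq of CG1024-eGFP was deposited as peak lists from 2 biological replicates, each alone and both together, on dm6 per the labels. Chromatin was sonicated, per the labels, and peaks derive from each replicate's alignments and a control, per the deposited inventories. Which aligner and peak caller were used is not given in the sources used here. Each peak's signal and the −log10 of its global IDR are the authors' deposited values. No list holds read counts.

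Genes and TSSs came from Ensembl release 115, and sequence from RefSeq Release 6. Peaks on 7 chromosomes were assigned by any overlap with an interval, and summits by distance to annotated TSSs. At each conservative peak, a replicate's value is the highest among its overlapping ranked peaks. All values are descriptions, since 1 group allows no comparison between conditions, and no p-values were computed. The genes and the wider list were chosen with earlier results of these data known. Named genes are the 10, genes of the wider list with a conservative summit within 500 bp of a TSS, and neighbours with a TSS within 500 bp of a named summit; genes that contain a named peak (Sec63, Mgat4a and CG42507) were added after the values were seen. Alternatives were the other set, each replicate alone, IDR levels of 0.05 and 0.001, 2 kb or no upstream flank, other definitions of overlap, and TSS windows of 200 and 1000 bp. Functions were tested on simulated data. Python 3.11.15, numpy 2.4.6, pandas 2.3.3 and matplotlib 3.10.9 were used.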

Additional observations from a re-analysis of the deposited data

How the results depend on the processing

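With 1 replicate at a time, 7 to 8 of the 10 genes had a peak, 6 to 7 had a promoter summit, and 9 to 12 peaks lay in their intervals. Under every alternative run, these counts stayed within 1.5 times the values reported. The number of peaks was 14 at an IDR of 0.05 and 8 at 0.001, and the number of genes with a peak was 7 with a 2 kb flank or the gene body alone. The gene lost in both was CTCF, whose conservative peak lies 4702 bp upstream of its TSS. CTCF was also the gene lost in replicate 2 alone and at an IDR of 0.001. In the wider list, whose alternatives were added after the data were seen as was a motif window of 50 bp, 6 promoter summits became 8 in the other series-level set and at an IDR of 0.05, 3 at an IDR of 0.001 and 3 with a TSS window of 200 bp, and 4 to 5 with 1 replicate at a time. With the 50 bp window, CGATA was in 3 of the 12 windows and TATCGATA in 0. No paired analysis was possible because there is 1 group. Depth is unknown, so a gene without a peak, such as su(Hw) or pita, cannot be told from one bound below detection.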
